A study of Homo sapiens with 12 samples.

Results

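The genes described here are the 5 members of the chromosome 17 amplicon around ERBB2 (ERBB2, GRB7, MIEN1, STARD3 and PGAP3), the 3 other receptors of the ERBB family (EGFR, ERBB3 and ERBB4), and 2 genes that act downstream of these receptors (PIK3CA and GRB2). They were chosen by symbol because SK-OV-3, an established human ovarian cancer cell line, is known to carry an amplification of ERBB2. This rule used none of their values, but it was set with earlier results of these data known. They are 10 of the 60623 Ensembl genes in each table. The study asked how doxorubicin, a topoisomerase II poison of the anthracycline class, and the small molecule FAK inhibitor IN10018 change RNA in these cells. Cells were kept for 24 h in DMSO (the solvent control), in 300 nM doxorubicin, in 3 μM IN10018, or in both drugs at these doses (the combination), with 3 libraries of each treatment and 12 in all. The cells of all treatments are the same line in culture, without a host or other cells, and the sample labels give its genotype as diploid. Copy number was not measured in these libraries.

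ERBB receptors are receptor tyrosine kinases that pair with each other when a ligand binds. ERBB2, also called HER2, has no known ligand and is the favoured partner of the others, while ERBB3 has little kinase activity of its own and serves mainly to recruit phosphatidylinositol 3-kinase (PI3K). When a stretch of chromosome 17 is amplified in breast, stomach or ovarian cancer, the genes next to ERBB2 are copied with it and are often transcribed at a high level as well.

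ERBB2 and PGAP3 are transcribed away from each other. The RefSeq starts used here lie 36 bases apart, and their 300-base promoter windows (250 bases before the start and 50 after it) overlap. These windows are shown because the RNA of the pair did not move together, and those of MIEN1 and STARD3 because they stand for the 2 patterns seen among the amplicon genes. The sequences are from RefSeq on GRCh38.p14, each 5′ to 3′ on the strand of its gene. In ERBB2 (chr17:39687844-39688143, plus strand) and PGAP3 (chr17:39688008-39688307, minus strand) capitals mark the 136 bases that both windows hold. In MIEN1 (chr17:39730483-39730782, minus strand) and STARD3 (chr17:39636894-39637193, plus strand) capitals mark matches to the motifs searched.
ERBB2: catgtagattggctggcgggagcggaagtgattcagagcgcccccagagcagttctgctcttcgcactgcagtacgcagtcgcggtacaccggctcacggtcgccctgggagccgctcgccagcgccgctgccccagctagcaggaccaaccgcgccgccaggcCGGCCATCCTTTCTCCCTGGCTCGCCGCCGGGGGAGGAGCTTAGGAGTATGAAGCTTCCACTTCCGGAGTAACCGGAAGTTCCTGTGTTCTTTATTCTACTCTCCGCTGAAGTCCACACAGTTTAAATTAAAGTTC
PGAP3: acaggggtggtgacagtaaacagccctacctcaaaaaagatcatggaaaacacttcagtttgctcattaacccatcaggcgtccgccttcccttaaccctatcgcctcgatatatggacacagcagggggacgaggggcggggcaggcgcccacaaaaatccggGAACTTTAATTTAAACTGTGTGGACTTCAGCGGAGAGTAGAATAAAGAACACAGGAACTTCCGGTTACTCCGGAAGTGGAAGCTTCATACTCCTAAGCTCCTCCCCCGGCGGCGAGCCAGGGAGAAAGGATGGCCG
MIEN1: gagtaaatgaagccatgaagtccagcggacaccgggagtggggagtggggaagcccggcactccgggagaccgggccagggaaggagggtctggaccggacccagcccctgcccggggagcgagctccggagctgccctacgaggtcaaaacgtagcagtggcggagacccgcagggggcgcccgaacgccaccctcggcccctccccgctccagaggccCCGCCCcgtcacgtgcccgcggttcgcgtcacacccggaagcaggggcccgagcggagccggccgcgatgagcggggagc
STARD3: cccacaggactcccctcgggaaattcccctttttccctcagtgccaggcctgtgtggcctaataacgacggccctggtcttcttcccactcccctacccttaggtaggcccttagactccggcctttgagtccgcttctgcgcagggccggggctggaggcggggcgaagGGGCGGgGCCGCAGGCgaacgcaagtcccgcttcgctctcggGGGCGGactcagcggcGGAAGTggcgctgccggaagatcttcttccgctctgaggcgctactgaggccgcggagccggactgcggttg
The motifs searched on both strands were the TATA box, written TATAA, found in 20.4% of 35116 RefSeq promoters of this length, and the CCAAT box, named by its letters and found in 34.6%. The GC box, written GGGCGG, was found in 45.0% of them. The site of AP-2 factors, GCCNNNGGC, was found in 23.2%, and the ETS core searched for, GGAAGT, in 22.8%. The ERBB2 window held 1 match to the CCAAT box and 3 to the ETS core, and 2 of the latter lie in the bases shared with PGAP3. PGAP3 held these 2 and 1 GC box, MIEN1 held 1 GC box, and STARD3 held 2 GC boxes, 1 AP-2 match and 1 ETS match. None of the 4 windows held the TATA box in these letters. ERBB2 has 20 distinct transcript starts among its 22 transcripts in GENCODE 29. The window shows only 1 of its starts, that of the first RefSeq entry, and windows at other starts were not searched. A match is a description of letters, not a site shown to be used.

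Levels are given in FPKM (fragments per kilobase of transcript, relative to the size of the library), as the mean ± SD of 3 libraries or as the value of each library in the order of its replicate number. Each library held 8033951 to 12901505 reads, counted from the FPKM values themselves. Of the 10 genes, 8 reached 1 FPKM or more in 3 or more of the 12 libraries, and ERBB3 and ERBB4 did so in none. Among 9 genes expressed by ovarian epithelium, 7 were at 1 FPKM or more in all 12 libraries, while WT1 and MUC16 were not, and none of 8 markers of blood, endothelium, stroma or liver exceeded 0.273 FPKM in any library. Separate cultures are stated neither in the labels nor in the methods for the 3 libraries of a treatment, and the p-values therefore cover only a spread between libraries that may be technical. Libraries of one treatment also differed along a leading axis with 55.4% of the spread within treatments. DMSO replicate 2 (score 36.7), IN10018 replicate 1 (36.2) and combination replicate 2 (25.3) stood apart at its high end, with the rest from -24.2 to 6.56. At its low end, DMSO replicate 1 (-21.9), IN10018 replicate 2 (-24.2) and combination replicate 1 (-21.7) lay almost as far out as combination replicate 2. Combination replicate 1 also had the highest sum of FPKM of all libraries (721177, against 553704 and 548652 in replicates 2 and 3). The fits without the libraries that stand apart keep it.

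In DMSO, the amplicon genes were at very unequal levels. MIEN1, which encodes a small protein linked to migration and invasion, had the highest at 164 ± 7.51 FPKM, above 97.1% of the 11301 genes kept. ERBB2 followed at 106 ± 27.6 FPKM, rank 454 of these genes, above 96.0% of them. STARD3, which encodes a cholesterol-binding protein of late endosomes, was at 37.0 ± 7.21 FPKM, PGAP3, which encodes an enzyme that remodels the lipid of GPI anchors, at 14.9 ± 2.25 FPKM, and GRB7, which encodes an adaptor that binds phosphorylated ERBB2, at 11.7 ± 1.34 FPKM. MIEN1 was therefore 1.55 times ERBB2 by the ratio of means, and ERBB2 2.85 times STARD3. The level of GRB7 was above that of 79.6% of all genes kept.

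The other receptors were far below ERBB2. EGFR, the receptor of EGF, was at 4.37 ± 1.78 FPKM, above 59.1% of the genes kept. ERBB4 was at 0.194 ± 0.0366 FPKM and ERBB3 at 0.0885 ± 0.0403 FPKM. Over the 12 libraries ERBB4 had 8 to 38 reads and ERBB3 5 to 29, so that both are near the limit of this depth. GRB2, which encodes the adaptor that links receptors to RAS through SOS, was at 8.86 ± 0.50 FPKM, and PIK3CA, which encodes the catalytic subunit p110α of PI3K, at 1.15 ± 0.55 FPKM. In the order MIEN1, ERBB2, STARD3, PGAP3, GRB7, GRB2, EGFR, PIK3CA, ERBB4, ERBB3, no DMSO library of a gene overlapped the libraries of its neighbours. The closest pair was PGAP3 and GRB7, where the lowest PGAP3 library had 13.3 FPKM and the highest GRB7 library 12.9 FPKM.

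**Figure D1:**
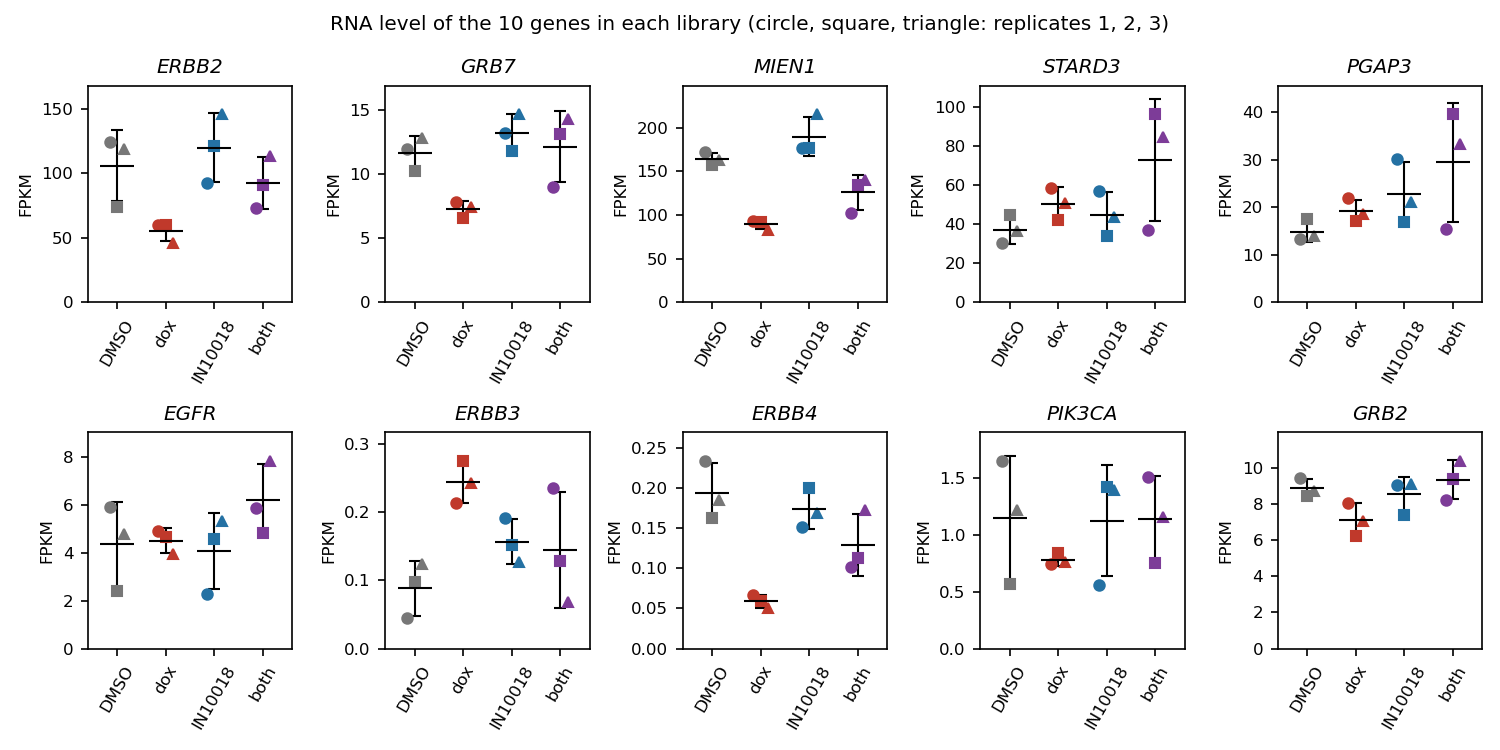
Level in FPKM (vertical axes, each from 0) of the 10 genes in each of the 12 libraries; points are libraries, the horizontal bar is the mean and the whiskers are the SD of 3 libraries, with dox for doxorubicin and both for the combination. ERBB2, GRB7 and MIEN1 were lowest with doxorubicin, while STARD3 and PGAP3 were highest in combination replicates 2 and 3 (96.4 and 84.8 FPKM for STARD3).

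In the GENCODE 29 annotation of GRCh38, ERBB2 lies on chromosome 17 from 39687914 to 39730426 on the plus strand. MIEN1 (39728496 to 39730787, minus strand) runs into its end, and the 2 genes share 571 exon bases of the 2292 in MIEN1 and the 10321 in ERBB2. PGAP3 (39671122 to 39696797, minus strand) overlaps its beginning and shares 194 exon bases with it. STARD3 (39637065 to 39663484) and GRB7 (39737927 to 39747291), both on the plus strand, share no exon base with the others. The libraries keep the strand, but whether the counting used it is not stated, so the reads in the shared bases may belong to either gene, and the levels of MIEN1, PGAP3 and ERBB2 are uncertain to that extent. GRB2 also lies on chromosome 17, outside the amplicon, from 75318076 to 75405709 on the minus strand.

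High levels were found close to ERBB2. Within 1 Mb on either side, 53 protein-coding genes are annotated and 33 passed the filter on low values, with a median of 6.49 FPKM in DMSO, against 3.36 FPKM over the 9529 protein-coding genes kept in the genome. Of the 10 genes with their lower end within 100 kb of that of ERBB2, 8 were kept, with a median of 25.9 FPKM, and 7 of them were at 10 FPKM or more. The 13 genes kept further below ERBB2 on the chromosome had a median of 5.13 FPKM with 5 at 10 FPKM or more, and the 12 kept further above a median of 3.82 FPKM with 3 at that level. Close to ERBB2, PPP1R1B, which encodes the phosphatase inhibitor DARPP-32, was at 46.4 ± 7.74 FPKM, and PNMT, the enzyme that makes adrenaline, at 11.9 ± 3.60 FPKM. Position did not go with a high level in every gene, since the transcription factor genes NEUROD2 and IKZF3 in the same interval were at 0.0333 and 0.0290 FPKM. Further away, the ribosomal protein genes RPL23 and RPL19 were the highest genes of the window (2273 ± 303.8 and 421 ± 171 FPKM), followed by PSMB3, a proteasome subunit gene (312 ± 265 FPKM). These levels are a description, since the genes were chosen with the amplification known.

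**Figure D2:**
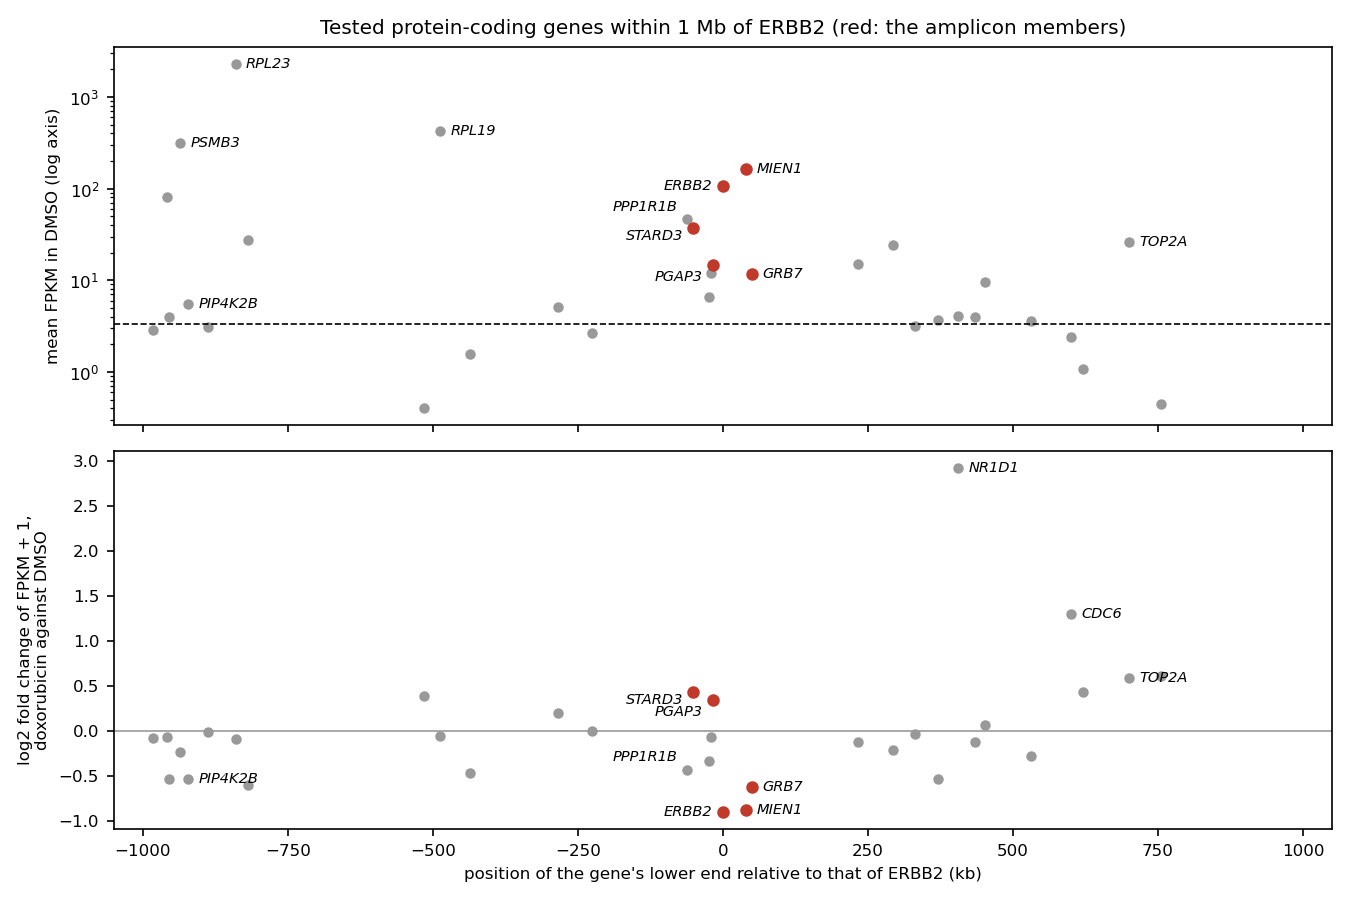
Protein-coding genes that passed the filter within 1 Mb of ERBB2, placed by their lower end relative to that of ERBB2 in kb (horizontal axis), with the amplicon members in red. The upper panel gives the mean FPKM in DMSO on a log axis with the median of all protein-coding genes kept (3.36) as a dashed line, and the lower panel the log2 fold change of FPKM + 1 with doxorubicin, where neighbouring members lie on both sides of 0.

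With doxorubicin, ERBB2 and MIEN1 fell against DMSO. ERBB2 had 124, 73.9 and 119 FPKM in the DMSO libraries and 59.5, 59.9 and 46.1 FPKM with doxorubicin. All doxorubicin libraries lay below all DMSO libraries, and the lowest DMSO value was that of replicate 2, one of the libraries that stand apart. On the log2(FPKM + 1) scale used for every fold change here, ERBB2 fell by 0.90 (SE 0.26, adjusted p = 0.0489 in limma), to 0.537 of its DMSO value on that scale. In bulk libraries, less of this RNA per cell and fewer cells that express it cannot be told apart. MIEN1 had 172, 157 and 164 FPKM in DMSO and 92.8, 91.8 and 83.2 FPKM with doxorubicin. Its groups were far apart beside their spread, and it fell by 0.87 (SE 0.18, adjusted p = 0.0122 in limma).

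GRB7 was also lower, without passing the threshold. It had 11.96, 10.2 and 12.9 FPKM in DMSO and 7.80, 6.55 and 7.41 FPKM with doxorubicin, again without overlap (log2 fold change -0.62, SE 0.19, adjusted p = 0.0676 in limma). STARD3 and PGAP3, below ERBB2 on the chromosome, were not lower. STARD3 had 30.3, 44.6 and 36.2 FPKM in DMSO and 58.7, 41.9 and 50.7 FPKM with doxorubicin (log2 fold change 0.44, adjusted p = 0.473). PGAP3 had 13.3, 17.4 and 13.9 FPKM in DMSO and 21.8, 17.1 and 18.6 FPKM with doxorubicin (log2 fold change 0.35, adjusted p = 0.556). In both genes the groups overlapped, and the means with doxorubicin were above those in DMSO.

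EGFR differed less between the groups than among the DMSO libraries, with 5.91, 2.43 and 4.78 FPKM in DMSO and 4.93, 4.69 and 3.95 FPKM with doxorubicin (log2 fold change 0.10, adjusted p = 0.885). Without the libraries that stand apart, its log2 fold change was -0.20. GRB2 had 9.43, 8.47 and 8.70 FPKM in DMSO and 8.06, 6.21 and 7.07 FPKM with doxorubicin, without overlap (log2 fold change -0.29, adjusted p = 0.339), and PIK3CA 1.65, 0.57 and 1.22 FPKM against 0.74, 0.84 and 0.76 FPKM (log2 fold change -0.24, adjusted p = 0.590). The low genes ERBB3 and ERBB4 differed in opposite directions, both without overlap. How many other genes below the filter did so was not counted. ERBB3 had 0.04, 0.10 and 0.12 FPKM in DMSO and 0.21, 0.27 and 0.24 FPKM with doxorubicin, and ERBB4 0.23, 0.16 and 0.19 FPKM against 0.07, 0.06 and 0.05 FPKM. Neither passed in a limma fit without a filter (adjusted p = 0.189 for ERBB3 and 0.0851 for ERBB4).

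Of the 8 genes tested with doxorubicin, 2 passed, both lower, where 2.10% of all genes tested were lower past the threshold and 5.92% higher (237 and 669 genes, or 516 and 803 after median-ratio scaling). The 2 are ERBB2 and MIEN1, whose exons overlap, so they may not be separate observations. In 4 of the 8 all doxorubicin libraries lay below all DMSO libraries, which held for 12.2% of all genes. The median log2 fold change was -0.26 over the 8 and -0.01 over all genes. The call of ERBB2 was not firm, since it was lost without a filter (adjusted p = 0.135), under quantile normalization (0.0540), with the replicate number as a block (0.0885), and without DMSO replicate 1 (0.181), DMSO replicate 3 (0.173) or doxorubicin replicate 1, 2 or 3 (0.108, 0.101 and 0.203). That of MIEN1 was lost without DMSO replicate 1 (0.0553) or doxorubicin replicate 3 (0.0699). Without the 3 libraries that stand apart, 4 of the 8 were lower past the threshold, namely ERBB2 (-1.13, adjusted p = 0.00845), MIEN1 (-0.90, 0.00894), GRB7 (-0.70, 0.0270) and PIK3CA (-0.45, 0.0361), and so were 1709 of all 11301 genes. Of the libraries compared here, that fit leaves out only DMSO replicate 2, picked from these same data. It held the lowest DMSO value of each of these 4 genes, so leaving it out raises their DMSO means.

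IN10018 alone left all 8 genes short of the threshold, with an adjusted p of 1.00 for each. In limma 0.00885% of all genes passed in this comparison, which is 1 gene, and at an unadjusted p under 0.05 there were 414 genes and 0 of the 8. ERBB2 had 92.6, 121 and 146 FPKM (log2 fold change against DMSO 0.19, SE 0.26). MIEN1 had 177, 177 and 216 FPKM, all above the DMSO libraries, as in 3.88% of all genes (log2 fold change 0.20, SE 0.18). The highest log2 fold change was that of PGAP3, with 30.1, 16.9 and 21.2 FPKM (0.55, SE 0.31, unadjusted p = 0.0952), and its highest value was in IN10018 replicate 1, a library that stands apart.

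In the combination, the amplicon genes lay between DMSO and doxorubicin or above both. Here all genes together had a median log2 fold change of 0.20 against DMSO, a shift that the values of each gene below include. ERBB2 had 73.0, 91.0 and 113 FPKM (log2 fold change -0.18 against DMSO, adjusted p = 0.707), overlapping the DMSO libraries. MIEN1 had 103, 135 and 141 FPKM, below all DMSO libraries, as in 4.44% of all genes (-0.39, adjusted p = 0.172). It passed after median-ratio scaling (-0.70, adjusted p = 0.0232). GRB7 had 9.02, 13.2 and 14.4 FPKM, and its log2 fold change of 0.04 changed sign with median-ratio scaling (-0.25) and with quantile normalization (-0.27).

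STARD3 and PGAP3 had their highest levels in 2 of the 3 combination libraries. STARD3 had 37.2, 96.4 and 84.8 FPKM (log2 fold change 0.86 against DMSO, SE 0.32, adjusted p = 0.0899 in limma), and PGAP3 15.4, 39.6 and 33.3 FPKM (0.85, SE 0.31, adjusted p = 0.0793). In both genes combination replicate 1 lay within the range of the DMSO libraries and replicates 2 and 3 above it. Without combination replicate 1 both passed, STARD3 at 1.28 (adjusted p = 0.00352) and PGAP3 at 1.24 (adjusted p = 0.00327), as did 2213 of all genes in the same direction, against 1616 with all libraries. Corrected for GC content and length, they were at 0.38 and 0.32 (adjusted p = 0.238 and 0.222). None of the 8 genes passed against DMSO with all libraries, where 14.3% of all genes were higher past the threshold and 1.28% lower (1616 and 145 genes). Median-ratio scaling gave 831 and 448 genes, and the GC and length correction 1317 and 1092. At an unadjusted p under 0.05 there were 2 of the 8 and 3348 of all genes.

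Between the combination and doxorubicin, all 8 genes had a log2 fold change above 0, as 81.2% of all genes did, and none passed, nor did any of the 11301 genes (0.00%). At an unadjusted p under 0.05 there were 3 of the 8 (ERBB2, GRB7 and MIEN1) and 1778 of all genes. For ERBB2 the log2 fold change was 0.72 (SE 0.26, adjusted p = 0.255 in limma), for GRB7 0.65 (SE 0.19, adjusted p = 0.246) and for MIEN1 0.48 (SE 0.18, adjusted p = 0.270), beside a median of 0.23 over all genes. In these 3 genes and in GRB2 every combination library was above every doxorubicin library, which held for 24.8% of all genes. The count over all genes turned on single libraries, since it was 676 without combination replicate 1 and 1321 without the 3 libraries that stand apart. GRB7 passed without combination replicate 1 (0.84, adjusted p = 0.0304), as 1 of 638 genes higher in that fit, and none of the 8 passed without the 3 libraries.

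Against IN10018, the combination held less MIEN1 RNA. MIEN1 fell by 0.60 (SE 0.18, adjusted p = 0.0423 in limma), without overlap between the groups, as in 4.56% of all genes. It was the 1 gene of the 8 past the threshold, where 1.43% of all genes were lower past it and 14.6% higher (162 and 1653 genes). Median-ratio scaling gave 515 and 998 genes, and the GC and length correction 1292 and 1573. The call of MIEN1 did not hold with the replicate number as a block (adjusted p = 0.0869) or without any 1 of the 6 libraries compared (adjusted p from 0.0596 to 0.134), while the log2 fold change stayed between -0.68 and -0.46. ERBB2 was at -0.37 (adjusted p = 0.369), and at -0.68 after median-ratio scaling (adjusted p = 0.0337). STARD3 was at 0.61 (adjusted p = 0.227) and passed without combination replicate 1 (1.03, adjusted p = 0.0130), where 2062 of all genes were higher. None of the 8 genes, nor any of all genes, passed the test of the interaction (the effect of the combination less that of each single drug), with 0.53 for ERBB2 (adjusted p = 0.685), 0.48 for GRB7 and 0.28 for MIEN1, and at an unadjusted p under 0.05 there were 0 of the 8 and 689 of all genes. The comparisons that share a group of libraries are not independent of each other.

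**Figure D3:**
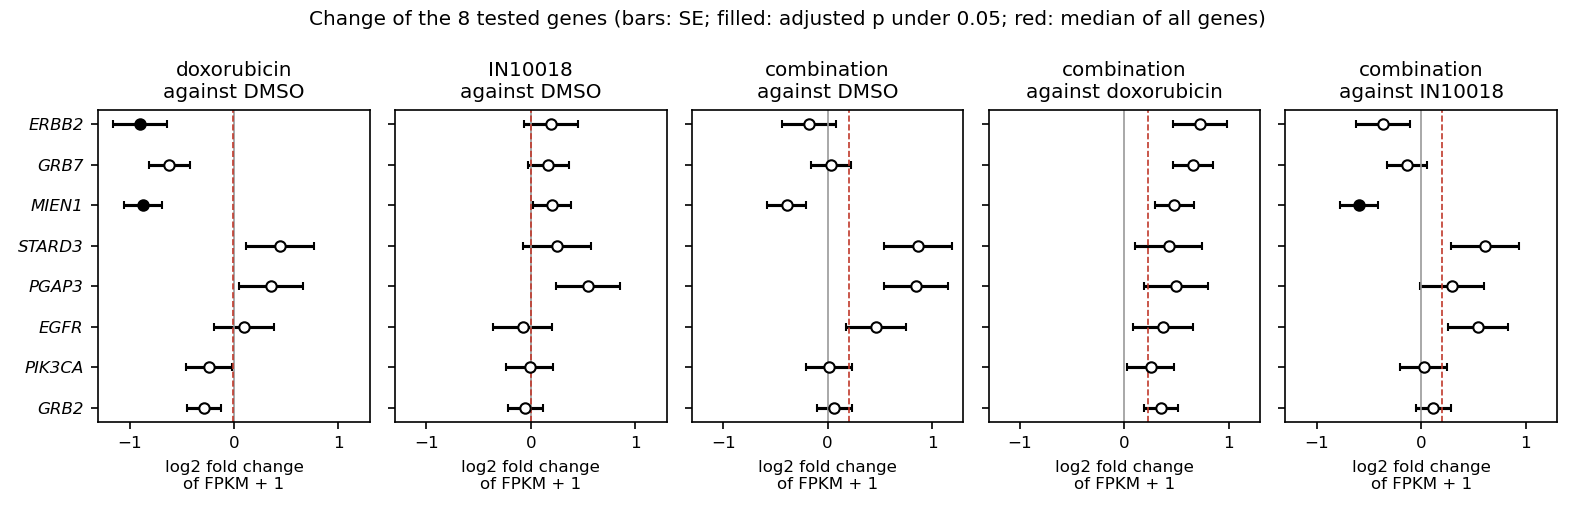
Log2 fold change of FPKM + 1 (horizontal axes) of the 8 tested genes in 5 comparisons; whiskers are the standard error from limma, filled points passed at an adjusted p under 0.05, and the dashed red line is the median over all genes (0.20 to 0.23 in the 3 combination panels). Filled points are ERBB2 and MIEN1 with doxorubicin and MIEN1 in the combination against IN10018.

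Levels of 2 genes within a library share its depth, so their ratio does not depend on the scaling between libraries. Of the 28 ratios among the 8 genes, 4 separated all 6 libraries with doxorubicin, alone or in the combination, from all 6 without it, and none did so for IN10018. These 4 were chosen after their values were seen and are given as a description. They share MIEN1 or EGFR with each other, so they are not separate observations. How often ratios among all pairs of genes separate the libraries in this way was not computed. The ratio of ERBB2 to EGFR was 21.01, 30.4 and 24.8 in DMSO and 40.6, 26.3 and 27.4 with IN10018, and it was 12.1, 12.8 and 11.7 with doxorubicin and 12.4, 18.7 and 14.4 in the combination. The ratio of MIEN1 to GRB2, which lie on the same chromosome arm far from each other, was 18.2 to 23.9 without doxorubicin and 11.5 to 14.8 with it. That of MIEN1 to STARD3 was 3.10 to 5.68 without doxorubicin and 1.40 to 2.76 with it, and that of MIEN1 to EGFR 29.1 to 77.4 and 17.4 to 27.7.

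Other ratios among amplicon genes were not divided in this way. The ratio of ERBB2 to STARD3 was 4.10, 1.66 and 3.27 in DMSO and 1.01, 1.43 and 0.91 with doxorubicin, but 1.62, 3.60 and 3.34 with IN10018 and 1.96, 0.94 and 1.34 in the combination, so that combination replicate 1 was above DMSO replicate 2 and IN10018 replicate 1. The ratio of STARD3 to PGAP3 stayed within 1.89 to 2.72 over all 12 libraries, although STARD3 itself ranged from 30.3 to 96.4 FPKM. Its lowest values were those of the IN10018 libraries. The ratio of MIEN1 to ERBB2, the genes whose exons overlap, stayed within 1.24 to 2.12.

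**Figure D4:**
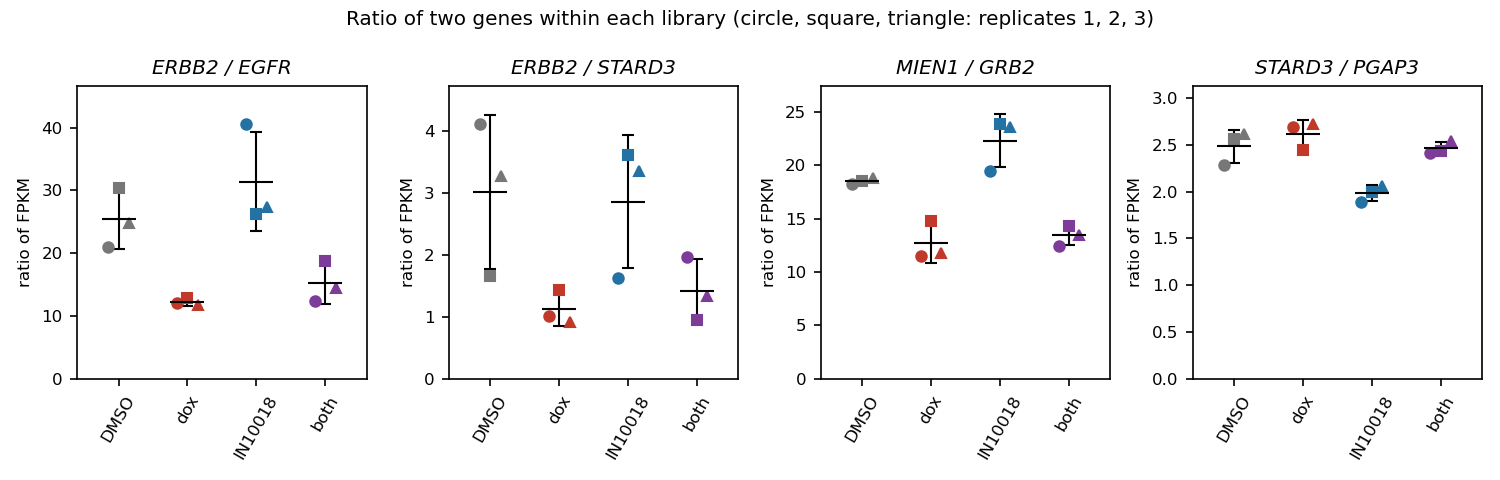
Ratio of the FPKM of 2 genes within each library (vertical axes from 0); points are libraries, bars are means and whiskers the SD of 3 libraries. The ratio of ERBB2 to EGFR was 21.01 or more without doxorubicin and 18.7 or less with it, and that of STARD3 to PGAP3 stayed within 1.89 to 2.72.

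Over the 12 libraries, which share treatments and the leading axis, the amplicon genes differed in how closely their levels went together. The correlation of log2(FPKM + 1) was 0.90 between ERBB2 and MIEN1, 0.89 between ERBB2 and GRB7 and 0.94 between STARD3 and PGAP3, but -0.16 between ERBB2 and STARD3. After the treatment means were taken out, it was 0.77, 0.64 and 0.99 for the first 3 pairs and 0.01 for the last. These deviations did not divide the genes into the same sets, since GRB7 went with STARD3 (0.70) and PGAP3 (0.66) as closely as with ERBB2, MIEN1 with both at 0.55, and ERBB2 with EGFR at 0.88. The genes differed in how their deviations went with the leading axis. STARD3 and PGAP3 were higher in libraries far along it (correlations 0.76 and 0.78), EGFR and PIK3CA lower (-0.88 and -0.98), as was ERBB2 (-0.60), and the correlations of MIEN1 and GRB7 were near 0 (-0.00 and 0.10). GC content of the longest transcript was 59.2% and 60.3% in STARD3 and PGAP3, 34.8% and 47.5% in PIK3CA and EGFR, 57.5% in ERBB2, 54.8% in MIEN1 and 59.9% in GRB7. The part of base composition or of the axis in the results of single genes was not tested beyond a fit corrected for GC content and transcript length and the fits without the libraries that stand apart.

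**Figure D5:**
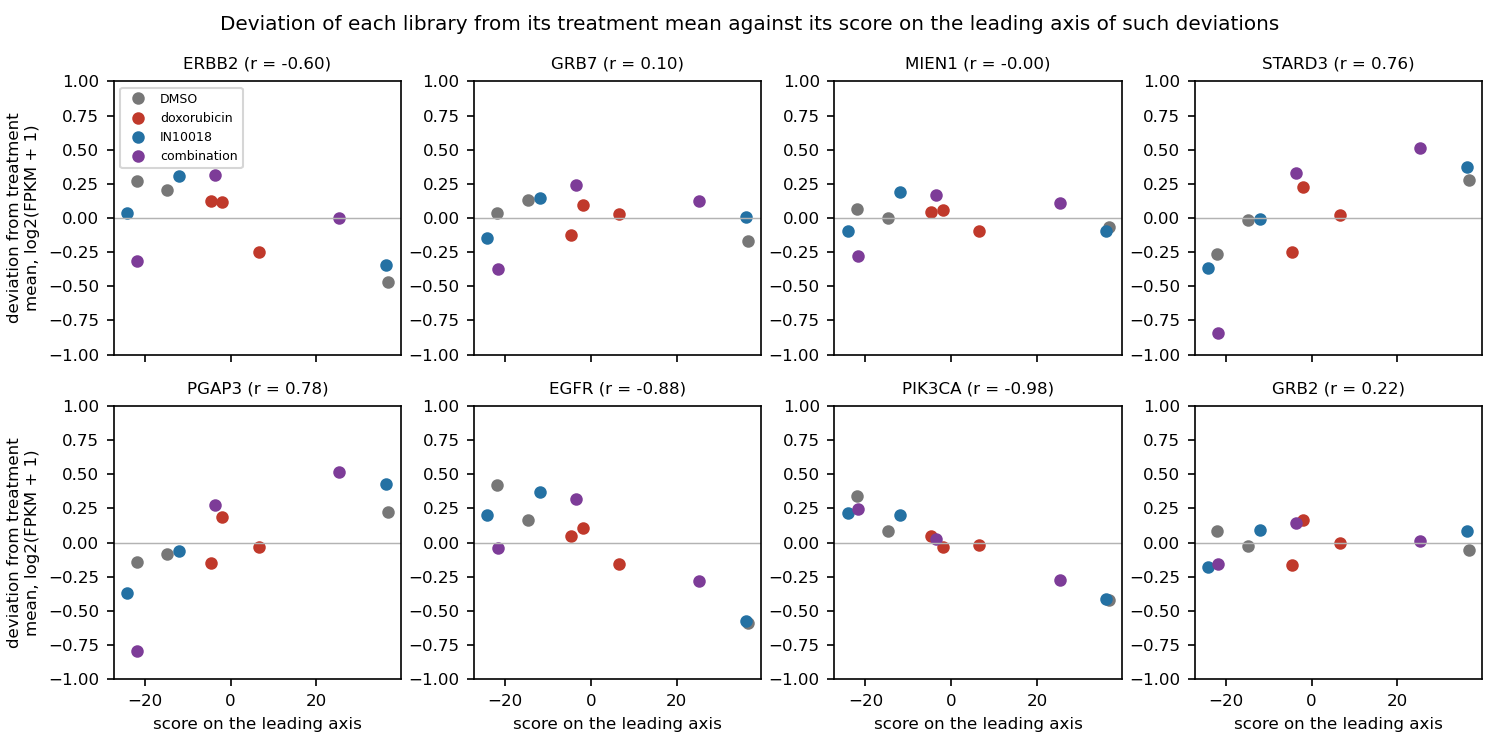
Deviation of each library from the mean of its treatment in log2(FPKM + 1) (vertical axes) against its score on the leading axis of such deviations over all genes (horizontal axes), for the 8 tested genes and 12 libraries, coloured by treatment. PIK3CA and EGFR slope down (r = -0.98 and -0.88), STARD3 and PGAP3 slope up (0.76 and 0.78), and MIEN1 is flat (-0.00).

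Likeness to ERBB2 was taken among 4472 other genes kept, each with a mean of 5 FPKM or more over the 12 libraries. Those most like it in level over the libraries were ZDHHC7, a palmitoyltransferase gene (r = 0.99), PIP4K2B, a phosphoinositide kinase gene (0.98), and HK1, which encodes hexokinase (0.97). FLNA, the filamin A gene (0.97), and AHNAK, a large scaffold protein gene (0.97), followed. PIP4K2B is also on chromosome 17, with its lower end at -922 kb relative to that of ERBB2, and had 5.58 ± 0.94 FPKM in DMSO, 3.54 ± 0.54 with doxorubicin, 6.27 ± 0.62 with IN10018 and 4.93 ± 0.59 in the combination. With treatment means taken out, SUPT5H (0.99), TIMP2 (0.98), B4GALT1 (0.98), RRBP1 (0.98) and YTHDF1 (0.97) were most like it.

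Other genes of the window around ERBB2 passed the threshold as well. Among its 33 protein-coding genes tested with doxorubicin, 3 rose, where 5.92% of all genes did, and 2 fell, where 2.10% did, the latter being ERBB2 and MIEN1. The exons of these 2 overlap, so they may not be separate observations. The median log2 fold change of the 33 was -0.08. NR1D1, a circadian transcriptional repressor gene, had 4.12 ± 0.94 FPKM in DMSO and 37.7 ± 4.21 with doxorubicin and rose by 2.93 (SE 0.22, adjusted p = 1.64e-05 in limma). CDC6, which licenses replication origins, rose by 1.31 (adjusted p = 0.00665), and IGFBP4, which binds insulin-like growth factors, by 0.61 (adjusted p = 0.0468, lost in 11 of 16 alternatives). In the combination against DMSO 4 of the 33 rose, where 14.3% of all genes did, namely NR1D1 (3.61), CDC6 (1.49), the retinoic acid receptor gene RARA (1.16) and the calcium channel gene CACNB1 (0.86). Against IN10018, where 14.6% of all genes rose, these 4 and TOP2A, which encodes the topoisomerase that doxorubicin poisons, rose, TOP2A by 1.43 (SE 0.30, adjusted p = 0.00613). With IN10018 alone none of the 33 passed. CACNB1 and IGFBP4 were at 0.403 ± 0.0948 and 0.444 ± 0.152 FPKM in DMSO, so they passed the filter only through treated libraries. The counts of genes that rose include them and are a description.

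The ligands of ERBB receptors were low in these cells, and 3 of them were higher in the combination than with IN10018. Of 11 ligand genes 5 were tested, and the highest in DMSO were TGFA, BTC and AREG at 1.84 ± 0.55, 1.19 ± 0.22 and 1.09 ± 0.55 FPKM. NRG1, a ligand of ERBB3 and ERBB4, had 0.443 ± 0.169 FPKM with IN10018 and 1.38 ± 0.37 in the combination and rose by 0.72 (SE 0.15, adjusted p = 0.00600 in limma). TGFA rose by 0.59 (adjusted p = 0.0236) and HBEGF by 0.73 (adjusted p = 0.0321), so that 3 of the 5 rose in this comparison, where 14.6% of all genes did, and the median of the 5 was 0.70, beside 0.20 over all genes. HBEGF also rose against DMSO (0.74, adjusted p = 0.0327), and with doxorubicin alone all 5 had a log2 fold change above 0 and none passed (median 0.33, beside -0.01 over all genes). The call of NRG1 held in all 16 alternatives, that of TGFA was lost in 6 and those of HBEGF in 9 against IN10018 and 10 against DMSO. The added 1 pulls the fold changes of such low genes towards 0. The filter counts libraries of every treatment, so a low gene such as NRG1 can be among the 5 through libraries where it is high. The count of 3 of the 5 is therefore a description.

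Among genes that carry or limit the signal, few passed. Of 17 genes of PI3K and AKT, 13 were tested, and PIK3R2, which encodes the regulatory subunit p85β that binds p110 proteins, was the 1 gene called. It had 1.45 ± 0.38 FPKM in DMSO, 0.559 ± 0.0678 with doxorubicin, 1.94 ± 0.59 with IN10018 and 0.440 ± 0.0612 in the combination. It fell by 0.64 with doxorubicin (SE 0.18, adjusted p = 0.0410 in limma), by 0.75 in the combination against DMSO (adjusted p = 0.0118) and by 1.01 against IN10018 (adjusted p = 0.00182). The first call was lost in 7 of 16 alternatives, the second in 1 (without DMSO replicate 3, adjusted p = 0.0529) and the last in none. The highest of this list in DMSO were AKT1 (10.2 ± 4.67 FPKM) and AKT2 (5.90 ± 1.56), which encode kinases that act downstream of PI3K.

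Of 16 genes in a list of proteins that restrain ERBB signalling or otherwise act on its receptors or ligands, 13 were tested. ERRFI1, whose product MIG6 binds and inhibits the EGFR kinase, had 4.28 ± 1.45 FPKM with IN10018 and 10.2 ± 1.98 in the combination and rose by 1.11 (SE 0.29, adjusted p = 0.0173 in limma). The call was lost without combination replicate 3, without IN10018 replicate 1 and without a filter. None passed in the other comparisons. Of 13 adaptor genes 11 were tested and none passed in any comparison, the highest in DMSO being PTPN11 (15.9 ± 6.82 FPKM), SHC1 (8.46 ± 1.25) and CRK (6.41 ± 2.07). Of 11 genes from RAS to ERK 9 were tested and none passed, with HRAS at 33.9 ± 18.2, MAP2K2 at 22.4 ± 4.38 and MAPK3 at 19.6 ± 7.36 FPKM in DMSO. All 7 genes in a list of ERBB shedding, chaperones and other proteins linked to receptor stability were tested and none passed. The highest in DMSO were HSP90AA1 at 153 ± 42.9, HSP90AB1 at 140 ± 38.4 and NCL at 32.4 ± 9.09 FPKM. With doxorubicin, the median log2 fold change was -0.10 in the list of PI3K and AKT, -0.11 in those of restraint and of adaptors, 0.05 from RAS to ERK and -0.18 for shedding and chaperones, beside -0.01 over all genes.

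Of 10 genes of transcription factors known to act on ERBB2, 5 were tested and none passed in any comparison. TFAP2A, which encodes an AP-2 factor, had 3.31, 1.78 and 2.54 FPKM in DMSO and 1.19, 1.24 and 1.37 FPKM with doxorubicin, without overlap (log2 fold change -0.62, adjusted p = 0.0788), and 2.04 ± 0.16 FPKM in the combination. YBX1, which encodes a Y-box protein, was the highest of the list at 131 ± 11.3 FPKM in DMSO, and ETV4, an ETS factor gene, was at 2.72 ± 0.0366. With doxorubicin all 5 had a log2 fold change below 0 (-0.62 to -0.00), with a median of -0.38, beside -0.01 over all genes, of which 48.8% had a log2 fold change above 0.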

How the data were processed

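RNA of 12 libraries of SK-OV-3 cells, 3 for each of 4 treatments by the sample titles, was analysed from the FPKM values deposited by the authors, which are scaled to gene length and library size. TopHat, Cufflinks, Cuffdiff and hg38 are listed in the submitters' processing notes, without versions or an annotation. For every gene above 0 in 3 or more libraries (24090 genes), the FPKM of different libraries had ratios of whole numbers (relative tolerance 3e-12), which gave the reads per library (8033951 to 12901505). Replicate libraries differed by more than counting noise.

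Genes of one symbol were summed (93 symbols), and those at 1 FPKM or more in 3 or more libraries were retained. log2(FPKM + 1) of the 12 libraries was fitted by treatment in limma 3.58.1 under R 4.3.3 (eBayes with a trend, two-sided). The threshold was a p of 0.05 after Benjamini-Hochberg adjustment over 11301 genes, and the method was tested on simulated data. The genes named are the 10 members, of each pathway list the called genes and the 3 highest in DMSO (1 of which is not reported here), those most like ERBB2, and genes of the window around ERBB2, of which NEUROD2 and IKZF3 were chosen after their values were seen. Marker lists were used only for levels. Members and lists were chosen with earlier results of these data known. Positions and GC content are from GENCODE 29, in which 58516 identifiers were found. Promoters are from RefSeq, which gave the 4 that are shown, each from the first entry of its gene. As alternatives, a pseudocount of 0.1 or 0.5, no filter or one of 5 FPKM and other scalings were tried, others changed the groups fitted and the libraries, added a replicate block, or used limma's voom on the recovered reads. A loess correction for GC content and transcript length was added after seeing the data. The 3 libraries that stand apart were also picked from these data. Files were read with Python 3.11.15 and pandas 2.3.3.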

Additional observations from a re-analysis of the deposited data

Results flagged for a closer look

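ERBB3 differed in opposite directions with IN10018 in the absence and in the presence of doxorubicin. All IN10018 libraries (0.19, 0.15 and 0.13 FPKM) lay above the DMSO mean (0.0885), and all combination libraries (0.24, 0.13 and 0.07 FPKM) lay below the doxorubicin mean, by -0.0992 FPKM on average. The difference was not tested as for the other genes, since ERBB3 was below the filter on low values, and in the fit without a filter the interaction had an adjusted p of 0.722 in limma. The values rest on 5 to 29 reads per library.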

How the results depend on the processing

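The replicate numbers did not pair the libraries (correlations of same-numbered deviations from -0.68 to 0.72, 5 of 18 over 0.1, and 1 of 12 libraries closest to its own number). With a replicate block, the count of members called was 1 with doxorubicin (MIEN1, with ERBB2 at an adjusted p of 0.0885) and 0 in the combination against IN10018 (MIEN1, 0.0869), and it changed no other call of a member. The count with doxorubicin, 2 as reported, was 1 without a filter and 4 without the 3 libraries that stand apart, and 3 each (with GRB7) after median-ratio scaling, with values corrected for GC content and transcript length, or with only the groups compared. In the combination against DMSO it was 0, and 2 with the latter correction (GRB7 and MIEN1) and 1 after median-ratio scaling. Against IN10018 it was 1, and 3 after that correction, 2 after median-ratio scaling and 0 with only the groups compared. Leaving out single libraries gave 0 to 2 with doxorubicin, 0 to 2 in the combination against DMSO, 0 to 1 against doxorubicin and 0 to 1 against IN10018. ERBB2 in DMSO stood above 96.0% of genes, or 91.2% with a filter of 5 FPKM.

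Leaving out the 3 libraries that stand apart turned the log2 fold change of EGFR (-0.20) with doxorubicin, of GRB7 (-0.11), PIK3CA (-0.062) in the combination against DMSO, of PIK3CA (-0.048) in the combination against IN10018, of STARD3 (-0.037) in the interaction. The GC and length correction turned the log2 fold change of PIK3CA (0.085) with IN10018, of GRB7 (-0.43), PIK3CA (-0.14), GRB2 (-0.23) in the combination against DMSO, of PGAP3 (-0.094), PIK3CA (-0.23), GRB2 (-0.13) in the combination against IN10018, of STARD3 (-0.045), PIK3CA (-0.043) in the interaction. Quantile normalization turned the log2 fold change of PIK3CA (0.00062) with IN10018, of GRB7 (-0.27), PIK3CA (-0.16), GRB2 (-0.23) in the combination against DMSO, of PIK3CA (-0.16), GRB2 (-0.16) in the combination against IN10018. Median-ratio scaling turned the log2 fold change of GRB7 (-0.25), PIK3CA (-0.13), GRB2 (-0.22) in the combination against DMSO, of PGAP3 (-0.010), PIK3CA (-0.12), GRB2 (-0.17) in the combination against IN10018, of MIEN1 (-0.023), STARD3 (-0.13) in the interaction. Leaving out single libraries turned EGFR (-0.20 to 0.31) with doxorubicin, ERBB2 (-0.043 to 0.36), EGFR (-0.37 to 0.21), PIK3CA (-0.22 to 0.20), GRB2 (-0.098 to 0.036) with IN10018, GRB7 (-0.087 to 0.22), PIK3CA (-0.20 to 0.18), GRB2 (-0.0091 to 0.14) in the combination against DMSO, GRB7 (-0.26 to 0.052), PIK3CA (-0.18 to 0.16) in the combination against IN10018, STARD3 (-0.084 to 0.59), PGAP3 (-0.31 to 0.34) in the interaction.

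Log2 fold changes of the members kept their direction and side of the threshold in 765 of 850 values under alternatives, and 52 turned their direction, mostly in genes near 0. In 18 values a call of ERBB2 or MIEN1 was lost, and in 15 a call was gained in the same direction. Most of the 850 are of genes and comparisons without a call, so this total does not measure how firm the calls are. Causes of these differences were not tested. Precision is limited by 3 libraries a group and, for ERBB3, ERBB4 and PIK3CA, by few reads (PIK3CA had 62 to 199).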
